A study of Ovis aries with 6 samples.

Results

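The distal ends of the acrocentric sheep chromosomes were described here by the CpG methylation of fixed 1 kb windows in the last 2 Mb of chromosomes 4 to 26. A window was taken when it lay within the last 2 Mb before the last CpG position listed for its chromosome and touched none of the unmethylated regions (UMRs), low-methylated regions (LMRs) or DNA methylation valleys (DMVs) that the authors listed for either stage. It also needed at least 3 CpGs with 5 or more reads in each of the 6 animals. This left 23765 windows of the 842571 autosomal 1 kb windows with enough covered CpGs. The samples were genomic DNA of perirenal adipose tissue, the fat around the kidney, from 3 lambs and 3 fetal animals, all pure-bred wild-type Merino sheep without treatment. For the lambs the sample labels give an age of 89 days and the series text 80 days, with white adipose as the tissue. The fetal age was 132 days of a gestation of 150 days, with brown adipose as the labelled tissue. The sample tags end in VEH for the lambs and TV for the fetal animals, and their meaning, which no label gives, cannot be told apart from stage. Each library came from a separate animal and was sequenced by whole-genome bisulfite sequencing, in which unmethylated cytosine is read as T, and the methylation level of a CpG is the share of its reads that still show C. Positions are on the build Oar_v3.1.

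CpG methylation is placed on both strands of the DNA and copied after replication, and most of a mammalian genome outside promoters and enhancers carries it at a high level. An acrocentric chromosome has its centromere close to one end, and in sheep the chromosomes other than the largest metacentric ones have this form. Their numbering starts by convention at the centromeric end, so that the highest coordinates lie toward the distal telomere; the files hold no centromere positions. The DNA next to telomeres of mammals is often rich in genes, in CpGs and in meiotic crossovers. The windows lie outside all listed low regions; which of them hold promoters was not examined.

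The distal ends were dense in CpGs. The last 2 Mb of the 23 chromosomes held 46000 windows of 1 kb, of which 10801 (23.5%) touched a listed region and 11434 of the others had too few covered CpGs, so that 51.7% remained. In the middle 10 Mb of the same chromosomes 12.1% of 229977 windows touched a listed region, and 55634 windows (24.2%) remained under the same rule. The table listed 26.9 CpG positions per kb in the distal ends and 8.75 per kb in the middle. A remaining distal window had a median of 27 listed CpGs, with quartiles of 18 and 39, and a middle window a median of 11, with quartiles of 8 and 15. The usable CpGs of a distal window numbered 8 in the median and those of a middle window 4, with medians of 66.8 and 36.8 CpG reads per animal. The share of listed CpGs that passed the coverage minimum was 25.6% in the distal ends and 24.6% in the middle. Coverage of a usable CpG was 10.2, 7.47 and 7.59 reads in lambs 1 to 3 and 9.84, 8.13 and 9.48 in fetal animals 1 to 3 at the distal ends. In the middle it was 10.4, 7.62 and 7.85 reads in the lambs and 9.83, 7.78 and 9.10 in the fetal animals. Libraries held between 136938075 and 209550245 CpG reads, a read being counted once at each CpG it covers, and lamb 2 was the shallowest.

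Methylation of the distal windows was higher than that of the middle windows of the same chromosomes in each of the 6 animals. With equal weight for each chromosome, the distal level was 83.3%, 84.9% and 84.4% in lambs 1 to 3 and 83.8% in each of the 3 fetal animals. The middle level was 79.4%, 81.5% and 80.8% in the lambs and 80.0%, 80.2% and 80.3% in the fetal animals. No animal's middle level reached the lowest distal level. The difference, distal minus middle, was 3.62 ± 0.196 percentage points (SD, n = 6 animals), from 3.37 in lamb 2 to 3.89 in lamb 1. The exact sign-flip permutation test over the 6 animals, two-sided, gave p = 0.03125, below which 6 animals cannot go. This test covers the spread between animals, which were compared over the same windows, and not the spread between places in the genome. The tissue was sequenced in bulk, so a change in the mix of cells and a change within cells cannot be told apart.

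**Figure D1:**
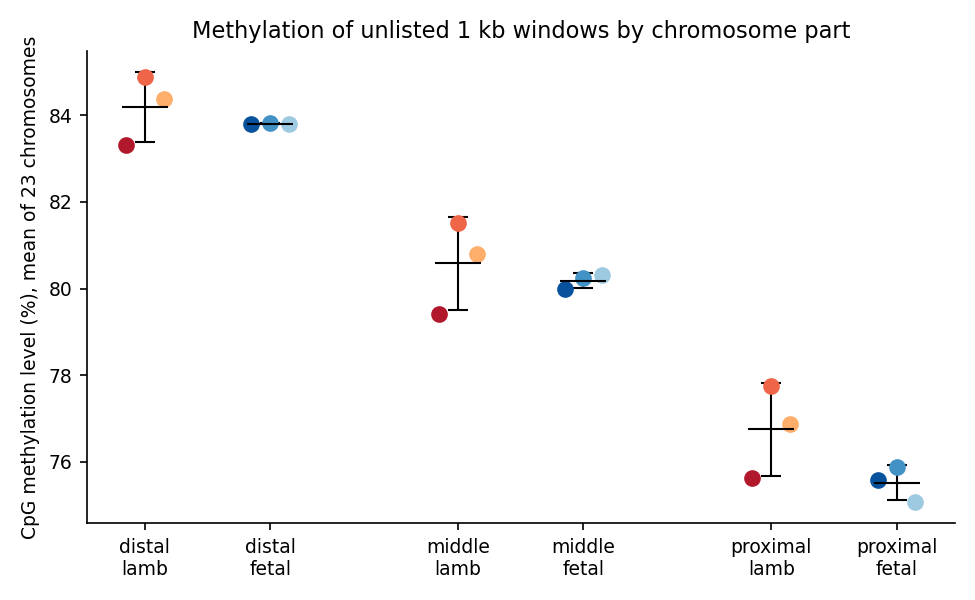
CpG methylation level in percent (vertical axis, not starting at 0) of unlisted 1 kb windows in the distal 2 Mb, the middle 10 Mb and the proximal 2 Mb, as the mean over 23 chromosomes. Each point is an animal, in the order 1 to 3, and the bar and whiskers give mean and SD of 3 lambs or 3 fetal animals; all 6 distal points lie above all 6 middle points, and lambs 1 and 2 span the range of the lambs in each part.

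By chromosome, the mean of the 6 animals was higher at the distal end than in the middle on all 23 chromosomes. The sign-flip test, adjusted by Benjamini-Hochberg over the 23 chromosomes, called 22 of them higher (95.7% of those tested; adjusted exact permutation p = 0.0327 for each) and 0 lower. With 6 animals an unadjusted p of 0.03125 is the smallest possible, so these calls mean that all 6 animals had the same sign. The distal level ran from 81.1% on chromosome 26 to 86.4% on chromosome 7, with an SD of 1.39 points between chromosomes. The middle level ran from 77.7% to 82.0%, with an SD of 1.03 points. Chromosomes carried between 827 and 1224 distal windows.

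Chromosome 10 had the largest difference, 6.34 ± 0.749 points (SD, n = 6). Its distal windows were at 83.5%, 84.8% and 84.3% in lambs 1 to 3 and at 83.8%, 83.7% and 84.0% in fetal animals 1 to 3. Its middle, with only 513 windows the thinnest of the 23, was at 76.4%, 79.5% and 78.6% in the lambs and at 77.0%, 77.6% and 77.0% in the fetal animals. The chromosome therefore stood out by a low middle and not by its distal end, which was at the average of the 23 chromosomes. Chromosomes 24, 20 and 6 followed with differences of 5.51 ± 0.311, 5.34 ± 0.0990 and 4.96 ± 0.571 points (SD, n = 6). On chromosome 6 the distal level itself was high, at 86.2%. On chromosomes 24 and 20 it was 84.5% and 84.0%, beside middles of 79.0% and 78.7%.

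The smallest difference was on chromosome 26, at 0.598 ± 0.852 points (SD, n = 6). Its distal windows were at 80.1%, 82.7% and 80.7% in lambs 1 to 3 and at 81.1%, 81.8% and 79.9% in fetal animals 1 to 3, against a middle at 79.3%, 81.5% and 80.7% in the lambs and at 80.0%, 80.4% and 80.7% in the fetal animals. The animals overlapped between the 2 places, and fetal animal 3 was lower at the distal end (adjusted exact permutation p = 0.156). Chromosomes 15, 13 and 16 came next, with 1.59 ± 0.388, 2.16 ± 0.436 and 2.26 ± 0.498 points (SD, n = 6). The distal end of chromosome 26 was also the poorest in CpGs, with a median of 16 listed CpGs per window, where chromosome 17 had the highest median, 43. Over the 23 chromosomes the difference and the median CpG number of the distal windows had a Pearson's r of 0.333 and a Spearman's rho of 0.321, given as a description of points that share their libraries.

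**Figure D2:**
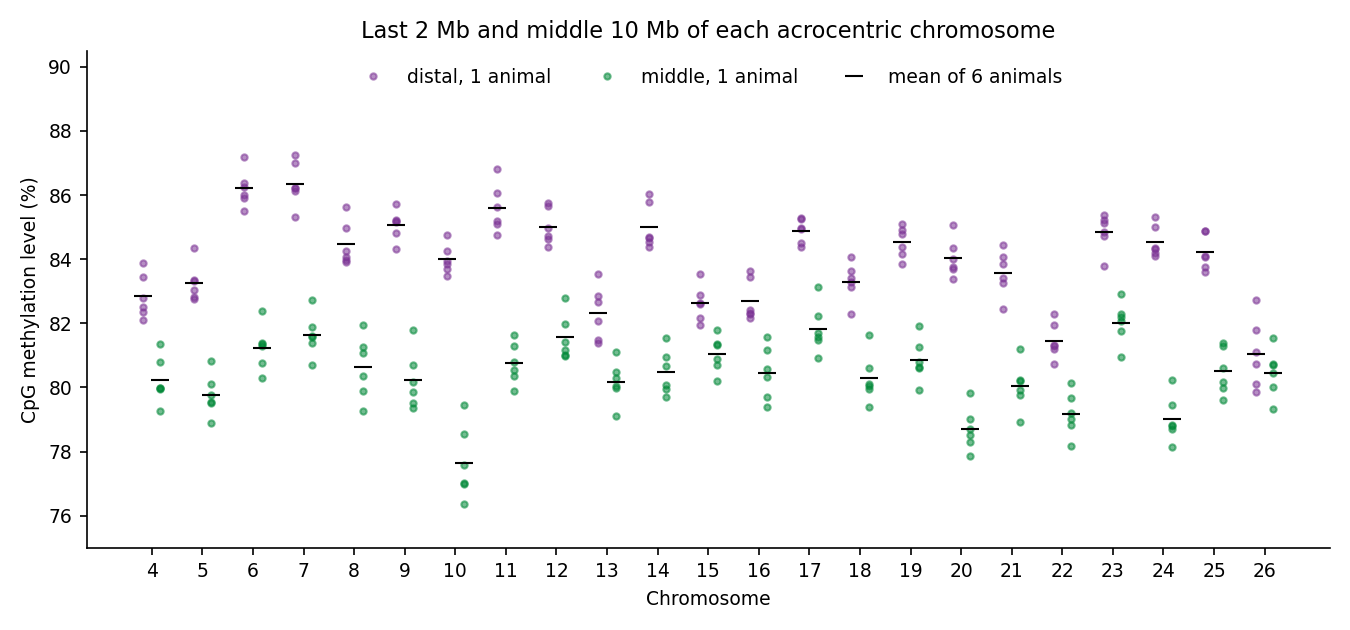
CpG methylation level in percent (vertical axis, from 75) of the last 2 Mb (left in each pair) and the middle 10 Mb (right) of chromosomes 4 to 26. Points are single animals and dashes the mean of 6; the distal points of chromosome 26 overlap its middle points, and the low middle of chromosome 10 is visible at 77.7%.

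The level was highest in the outermost 2 Mb and lower further in, with steps up and down. Windows in the outermost 1 Mb were at 84.2% ± 0.516 (SD, n = 6 animals, pooled reads), those between 1 and 2 Mb at 84.0% ± 0.578, between 2 and 3 Mb at 83.0% ± 0.617 and between 3 and 4 Mb at 81.8% ± 0.688. Between 4 and 5 Mb it was 82.5% and between 5 and 6 Mb 82.2%, both above the step before them at 3 to 4 Mb. Between 6 and 7 Mb the level was 80.7%, 0.262 points above the middle. Each 1 Mb step as far as 12 Mb from the end stood above the middle in all 6 animals. Between 13 and 14 Mb all 6 animals stood below it, with an average of -0.530 points. Further in, the steps from 14 to 17 Mb and from 18 to 20 Mb were again above the middle in all 6 animals, by 0.493 to 0.853 points, so a level above that of the central 10 Mb was not limited to the distal ends. On the shortest chromosomes, such as chromosome 24, the steps from 16 Mb inward overlap the central 10 Mb. Those steps and the middle therefore share some windows. The mean number of listed CpGs per window declined alongside, with 30.8 in the outermost 1 Mb, 21.3 between 3 and 4 Mb and 12.9 between 19 and 20 Mb.

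**Figure D3:**
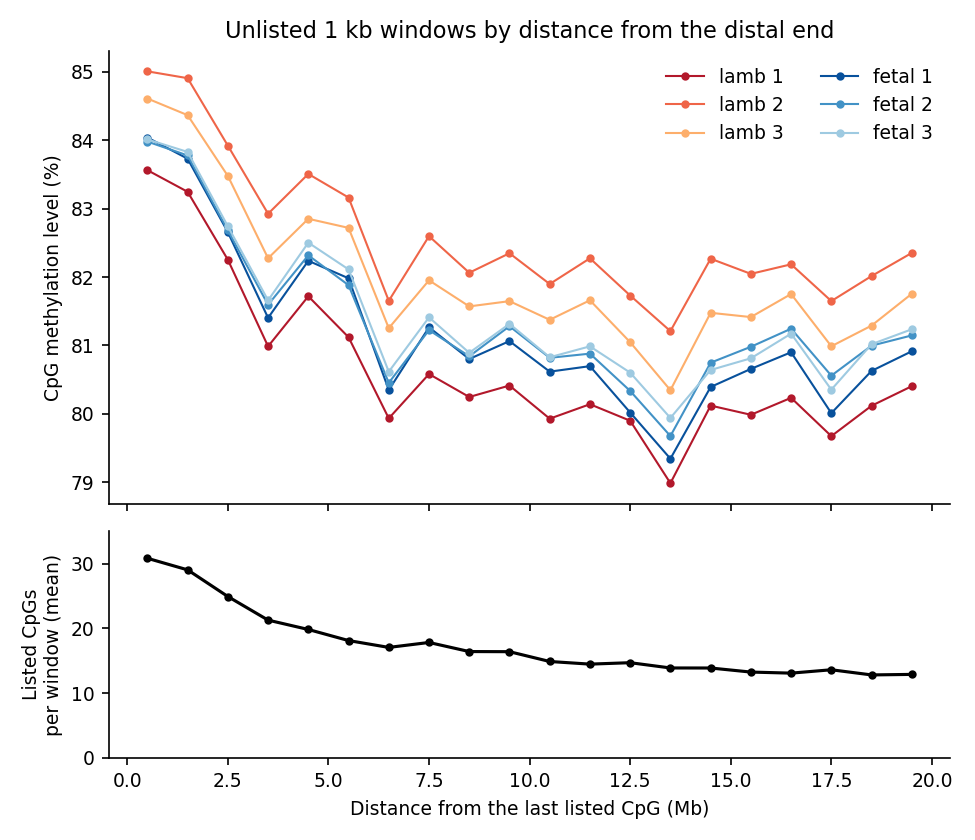
Upper part: CpG methylation level in percent of unlisted windows against distance from the last listed CpG in Mb, in steps of 1 Mb pooled over 23 chromosomes, with a line for each animal. Lower part: mean number of listed CpGs per window at the same distances; both are highest at the end, and the animals keep nearly the same order throughout, with lamb 2 on top at 85.0% in the outermost step and lamb 1 at the bottom at 83.6%.

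Within the 2 Mb the level varied between steps of 100 kb by nearly as much as between the distal ends and the middle. The lowest steps were the last 100 kb, at 82.8% ± 0.632, the step from 1.3 to 1.4 Mb, at 82.9% ± 0.707, and that from 600 to 700 kb, at 83.0% ± 0.660; the highest was that from 400 to 500 kb, at 85.6% ± 0.433 (SD, n = 6 animals, pooled reads). All 20 steps stood above the middle in all 6 animals. The outermost 500 kb were at 84.3% and the stretch 1.5 to 2 Mb from the end at 84.1%, a difference of 0.245 ± 0.139 points (SD, n = 6; higher in 6 of 6 animals; exact sign-flip permutation p = 0.03125). Without chromosome 11 this difference was 0.170 points and no longer had the same sign in all animals (exact permutation p = 0.0625). Within bins of CpG number, compared after the data were seen, it was 0.0110 points (exact permutation p = 0.875). The last 100 kb, singled out because their level was the lowest of the 20 steps and so described with no test, held 1032 windows at 82.0%, 83.8% and 83.2% in lambs 1 to 3 and at 82.5%, 82.7% and 82.4% in fetal animals 1 to 3. The stretch 1.5 to 2 Mb from the end was at 83.3%, 85.0% and 84.5% in the lambs and at 83.8%, 83.9% and 84.0% in the fetal animals. Each animal was lower in the last 100 kb, with an average difference of -1.33 ± 0.138 points, or -1.26 points within bins of CpG number (SD, n = 6). The chromosomes did not share this: of 21 chromosomes with at least 20 windows in both stretches 13 were lower in the last 100 kb, 10 of them in all 6 animals, and the differences ran from -8.30 points on chromosome 23 to 4.98 points on chromosome 16. Without chromosome 23 the pooled difference was -1.05 points. Coverage was 8.70 reads per usable CpG and animal in the last 100 kb and 8.77 in the inner stretch.

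The level of a window went weakly with its number of listed CpGs, and within bins of CpG number the distal windows were no longer higher on average. Over single windows Spearman's rho was 0.136 at the distal ends and 0.148 in the middle, a description with no test. Distal windows with 3 to 5 listed CpGs were at 79.0% ± 1.01, those with 21 to 30 at 83.3% ± 0.562 and those with more than 40 at 85.9% ± 0.566 (SD, n = 6 animals). In the middle the same bins were at 75.6% ± 0.847, 82.9% ± 0.570 and 87.7% ± 0.695. The windows lay in different bins: 23.4% of distal windows had more than 40 listed CpGs, against 0.528% of middle windows, and 5.71% of distal windows had 6 to 10, against 39.2% of middle windows. In the 5 bins of up to 30 CpGs all 6 animals were higher at the distal end, by 3.34 points in the bin of 3 to 5 CpGs and by 0.403 points in the bin of 21 to 30. In the bins of 31 to 40 and of more than 40 CpGs all 6 animals were lower at the distal end, with average differences of -0.687 and -1.77 points. Each of the 7 bins gave an adjusted exact permutation p of 0.03125 over the 7, and the test of the difference between bins was not made. Weighted by the number of distal windows in each bin, distal minus middle was -0.0837 ± 0.158 points (SD, n = 6; from -0.255 to 0.207 in single animals; exact sign-flip permutation p = 0.281), against 3.64 points from the same pooled reads without the bins. With a bin for each single CpG number, chosen after the data were seen, it was 0.105 points (exact permutation p = 0.188). That value covers 20203 of the 23765 distal windows, since CpG numbers with too few windows in either place were left out. The middle contributed only 294 windows with more than 40 CpGs to the comparison within the 7 bins.

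**Figure D4:**
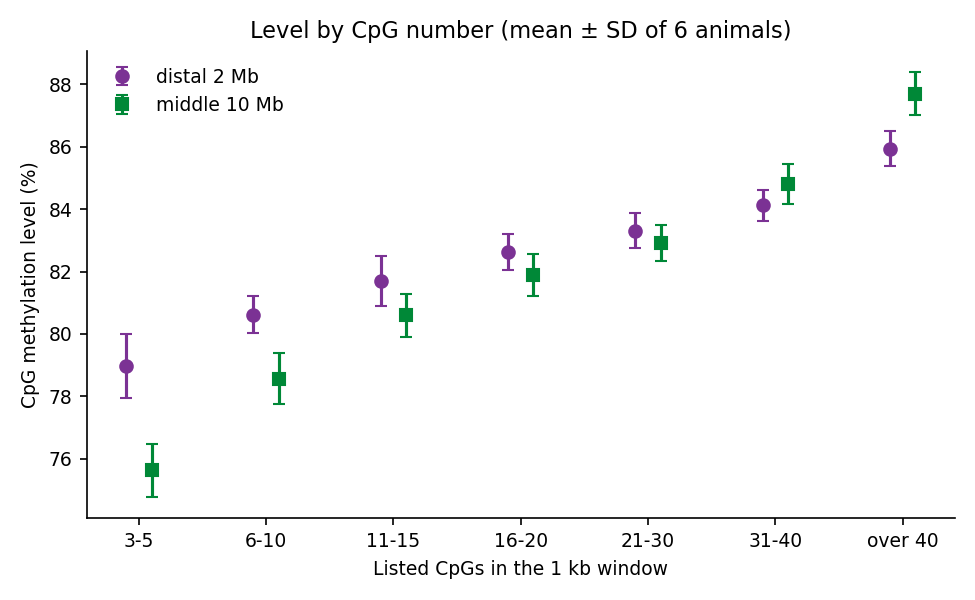
CpG methylation level in percent (vertical axis, not starting at 0) by the number of listed CpGs in a window, for the distal 2 Mb (circles) and the middle 10 Mb (squares), as mean and SD of 6 animals. The level climbs with CpG number in both; the circles lie above the squares up to 21 to 30 CpGs and below them at more than 30.

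Set against middle windows of the same CpG bins, the single distal ends moved apart in both directions. With the level of the pooled middle windows in each bin as the comparison, 10 chromosomes had a higher and 13 a lower distal level. The 13 were lower in all 6 animals, and 8 of the 10 were higher in all 6. The highest were chromosome 14, at 2.80 ± 0.152 points, chromosome 7, at 2.73 ± 0.296, chromosome 9, at 2.40 ± 0.302, and chromosome 25, at 2.00 ± 0.305. The lowest were chromosome 22, at -3.42 ± 0.153 points, and chromosome 16, at -2.21 ± 0.281 (SD, n = 6). Chromosome 10, first by the plain difference from its own middle at 77.7%, was at -1.38 ± 0.261 points within bins. The 2 values differ in the middle windows they are set against as well as in the bins. The highest 4 and the lowest 2 of these chromosomes lay further apart than the SDs between animals, while chromosomes 14 and 7 differed by less than theirs.

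**Figure D5:**
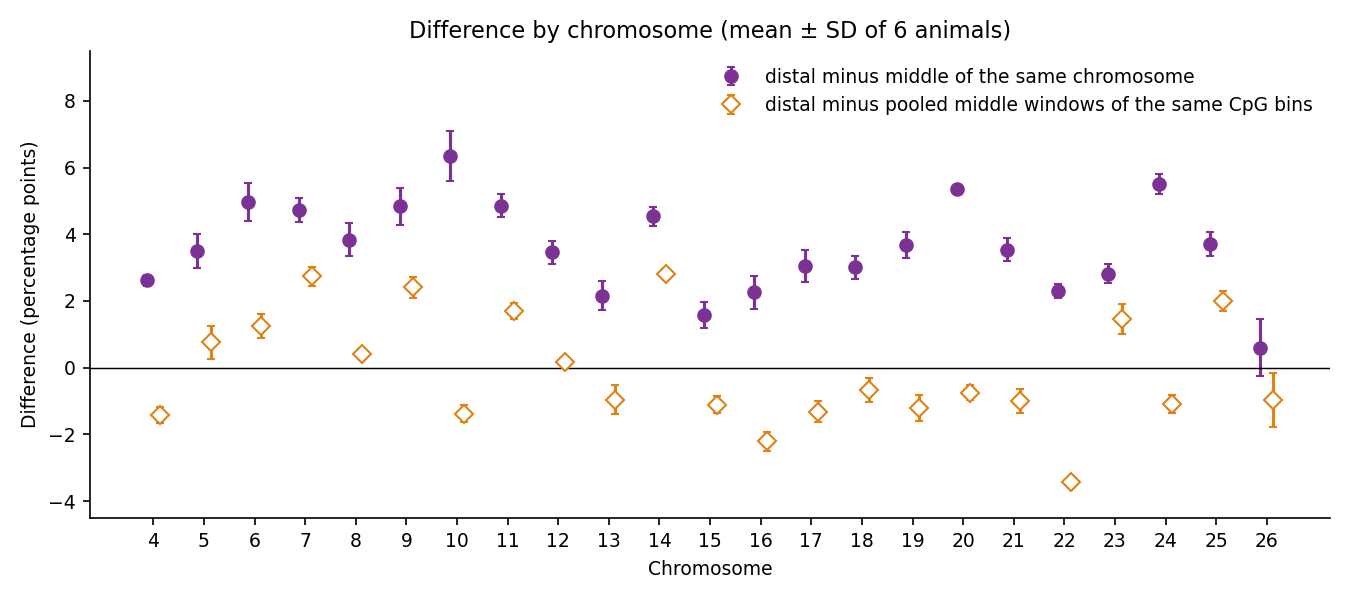
Difference in CpG methylation level in percentage points for chromosomes 4 to 26, mean and SD of 6 animals. Filled circles are distal minus middle of the same chromosome and open diamonds distal minus pooled middle windows of the same CpG bins; the circles all lie above 0, while 13 of the diamonds lie below it, down to -3.42 on chromosome 22.

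The distal ends also stood above the proximal ends, and this held within bins of CpG number. The proximal ends, the first 2 Mb of the same chromosomes, had 10788 windows and a level of 75.6%, 77.8% and 76.9% in lambs 1 to 3 and of 75.6%, 75.9% and 75.1% in fetal animals 1 to 3. Distal minus proximal was 7.87 ± 0.558 points (SD, n = 6; exact sign-flip permutation p = 0.03125). With pooled reads in place of equal weight per chromosome it was 5.44 points, and with pooled reads within bins of CpG number 4.36 points. In the pooled value proximal ends with few windows, down to 70 on chromosome 4, count less. The distal end was the higher on 22 of 23 chromosomes, the exception being chromosome 13 at -0.685 points. Windows with a coverage of more than 3 times the median of 41 summed reads per CpG made up 0.556% of proximal windows and 0.0589% of distal ones; leaving such CpGs out gave 7.37 points. Distal minus proximal was 7.68, 7.12 and 7.52 points in lambs 1 to 3 and 8.21, 7.94 and 8.72 in fetal animals 1 to 3, so the stages did not overlap (two-sided exact permutation p = 0.1, below which 3 animals against 3 cannot go). The metacentric chromosomes 1 to 3 were not uniform at their high-coordinate ends. These ends were at 79.3% ± 0.976, 81.6% ± 0.618 and 81.2% ± 0.531 on chromosomes 1, 2 and 3, and their low-coordinate ends at 83.8% ± 0.323, 82.1% ± 0.644 and 83.5% ± 0.511 (SD, n = 6), beside middles of 80.0%, 80.4% and 80.7%. All 6 of these ends were below the 84.0% that the distal ends of the acrocentric chromosomes averaged. Single acrocentric distal ends ran from 81.1% to 86.4%, and only the high-coordinate end of chromosome 1 lay outside that range. The ends of chromosomes 1 to 3 were not compared within bins of CpG number, and none of this was tested.

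Single distal windows were spread less widely than middle windows. The mean level of a distal window over the 6 animals had a median of 85.2%, with quartiles of 78.4% and 90.3%, and that of a middle window a median of 82.1%, with quartiles of 73.2% and 88.8%. At 90% or more were 26.6% of distal and 20.3% of middle windows, and below 50% were 81 distal (0.341%) and 992 middle windows (1.78%). The rule removed windows with listed low regions in both places, so the scarcity of low windows in each is in part made by it. Its part in the difference between the places was not tested. The median SD within a stage was 4.65 points for distal windows and 6.12 points for middle windows, over 66.8 and 36.8 CpG reads per animal. Distal windows also had a median of 8 usable CpGs and middle windows 4. Whether read or CpG number accounts for the lower SD, the narrower spread of levels or the fewer low windows was not tested. Windows less than 1 kb from a listed region, 27.5% of the distal ones, were at 82.8% ± 0.562, and the others at 84.6% ± 0.539 (SD, n = 6). The mean levels of 15383 pairs of adjoining distal windows had a Pearson's r of 0.239, a description with no test.

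The lowest distal windows rested on few CpGs. The lowest of all, chromosome 16 from 70518001 to 70519000, was at 50%, 28.6% and 8.70% in lambs 1 to 3 and at 40.4%, 33.3% and 34.4% in fetal animals 1 to 3, over 3 usable CpGs and 33.8 reads per animal. Its lambs were spread over a wider range than its fetal animals. Those on chromosome 5 from 107025001 to 107026000 and chromosome 26 from 44016001 to 44017000 averaged 34.4% and 34.5% over 3 usable CpGs each. The next, on chromosome 15 from 78992001 to 78993000, lay between 27.5% and 41.2% in the 6 animals over 5 usable CpGs. The one on chromosome 26 lies 61.8 kb from the last CpG. The 81 windows below 50% fell on 22 chromosomes and had a median of 14 listed CpGs, against 27 for all distal windows. At the other extreme, the window on chromosome 11 from 61283001 to 61284000 was at 100% in all 6 animals over 19.2 reads per animal, and that on chromosome 10 from 85797001 to 85798000 averaged 99.6%.

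Lambs and fetal animals did not separate in the level of the distal ends. The lambs averaged 84.2% ± 0.803 and the fetal animals 83.8% ± 0.0202 (SD, n = 3 each), a difference of 0.383 points (exact permutation p = 0.4, two-sided). The fetal levels lay inside the range of the lambs, between lamb 1 at 83.3% and lamb 3 at 84.4%. Lamb 2 was the highest animal on 19 of 23 distal ends and lamb 1 the lowest on 18. Lamb 2 had the lowest coverage and lamb 1 the highest, and the part of coverage in this order was not tested. Without lamb 2 the difference between the stages was 0.0386 points, and without lamb 1 it was 0.824 points (exact permutation p = 0.1, below which 3 animals against 2 cannot go). In the middle the same comparison gave 0.399 points (exact permutation p = 0.7). The difference between distal and middle was 3.61 ± 0.264 points in lambs and 3.63 ± 0.163 points in fetal animals (SD, n = 3 each), and the stage difference in it was -0.0152 points (exact permutation p = 0.9). The lamb mean exceeded the fetal mean on 21 of 23 distal ends, from -0.110 points on chromosome 23 to 0.916 points on chromosome 16. In the middle it did so on all 23 chromosomes, so this was not particular to the distal ends. These chromosomes share the same animals and are not independent.

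No single distal window was called different between the stages. In a quasi-binomial logistic test fitted to all autosomal windows, with the dispersion moderated as in limma, 0 distal windows and 0 windows in all (0%) passed both an adjusted p of 0.05 and a difference of 10 points. The smallest adjusted p of a distal window was 0.329. An unadjusted p under 0.05 was found for 1397 distal windows, or 5.88%, beside 6.11% of all autosomal windows, while limma on log2 ratios gave 1037 (4.36%), beside 5.65% of all windows, and 0 after adjustment. Of the 1397, 799 (57.2%) were higher and 598 lower in lambs. Of all autosomal windows 3.52% had such a p and were higher and 2.6% lower, so that 57.5% of those with such a p were higher. The animals of the stages did not overlap in 2415 distal windows (10.2%), beside 10.7% of all windows. The distal share was thus below that of all windows by both tools, but all windows include those that touch a listed region. In the same quasi-binomial fit the share was 5.35% of all autosomal windows outside the lists. It was 5.26% of middle and 5.52% of proximal windows, so the distal 5.88% was above each of these sets by a small margin. With the fit itself limited to windows outside the lists the distal share was 6.70%, beside 5.96%. Windows without overlap between the stages showed no such order. They made up 10.16% of distal windows, beside 10.21% outside the lists, 10.21% of middle and 10.00% of proximal windows. The limma share was not taken over windows outside the lists. Distal windows had a median of 66.8 CpG reads per animal and all windows outside the lists 39.5, and the part of read number was not tested.

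The windows given next have the smallest unadjusted p among the distal windows without overlap between the stages, and none passed the adjustment. On chromosome 9 from 93420001 to 93421000 the level was 83.9%, 96.1% and 84.7% in lambs 1 to 3 and 53.4%, 58.4% and 74.0% in fetal animals 1 to 3, over 13 CpGs (adjusted p = 0.408, same quasi-binomial test, moderated as in limma). The lambs all lay above the fetal animals there, and fetal animal 3 was closest to them. This window passed the adjustment when the fit was limited to windows outside the lists, a choice made after seeing the data (adjusted p = 0.0128). On chromosome 5 a window from 106991001 to 106992000 had 13 CpGs with 134 reads in the average animal; the lambs were at 75.6%, 75.2% and 70.5% and the fetal animals at 58.1%, 56.8% and 55.6%. Windows on chromosome 22 from 49303001 to 49304000 and on chromosome 14 from 60894001 to 60895000 were higher in lambs by 23.9 and 29.2 points in the means.

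In the other direction, the window on chromosome 13 from 81459001 to 81460000 was at 62.0%, 59.0% and 60.6% in lambs 1 to 3 and at 91.3%, 88.9% and 93.5% in fetal animals 1 to 3, over 5 CpGs and 41.7 reads per animal (adjusted p = 0.329, same quasi-binomial test, moderated as in limma). Both stages were tight in it. On chromosome 7 from 99942001 to 99943000, 137 kb from the last CpG, the lambs were at 60.0%, 70.1% and 72.8% and the fetal animals at 90.4%, 90.6% and 75.8%. It held 22 usable CpGs at 17.2 reads per CpG and animal, where the distal windows as a whole had 7.47 to 10.2, and lay 0.376 kb from a listed region. With a coverage minimum of 3 reads this window passed the adjustment (adjusted p = 0.0322, same test). It also passed when the fit was limited to windows outside the lists, a choice made after seeing the data (adjusted p = 0.000446, same test). The 2 kb window that starts at the same position passed as well (adjusted p = 0.00515, same test). Windows on chromosome 19 from 59477001 to 59478000 and on chromosome 8 from 88976001 to 88977000 had lamb minus fetal differences of -26.4 and -16.1 points in the means.

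The listed low regions and differentially methylated regions (DMRs) around these windows were also dense per Mb. Per Mb, the distal ends held 28.7 lamb and 28.8 fetal UMRs, against 7.69 and 7.77 in the middle, and 93.8 lamb and 98.8 fetal LMRs, against 36.9 and 38.3. Per 10000 listed CpGs the order differed by class: UMRs numbered 10.7 in either stage's list at the distal ends, against 8.79 for lambs and 8.88 for fetal animals in the middle, and LMRs 34.8 and 36.7, against 42.2 and 43.8. The distal ends held 19 lamb and 21 fetal DMVs, or 0.413 and 0.457 per Mb, against 0.217 and 0.239 in the middle. Per 10000 listed CpGs these DMVs numbered 0.153 and 0.170, against 0.248 and 0.273 in the middle. Of the autosomal DMRs, 54 of 526 in the hyper list (10.3%) and 49 of 496 in the hypo list (9.88%) lay in the distal ends, which hold 1.88% of the autosomal length and 4.97% of its listed CpGs. The hyper DMRs numbered 0.436 per 10000 CpGs at the distal ends and 0.209 in the middle, and the hypo DMRs 0.396 and 0.154. Chromosome 20 alone held 21 of these distal DMRs and chromosome 26 held 0. These lists have 1 set per stage or direction, so the counts carry no replicate error. Among the distal windows outside the low regions, 7 touched a hyper and 8 a hypo DMR; 7 of the 7 were higher and 7 of the 8 lower in lambs, and the lists come from the same animals, so this is no independent evidence.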

How the data were processed

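The authors deposited raw counts of methylated and covering reads for each CpG position and animal, and region lists as positions alone. The series design text gives Oar_v3.1 as the mapping target. BWA, Picard and hg19 also appear in the submitters' processing notes, with no role stated; callers of methylation and regions are not stated there. No 2 of the 26377052 positions are 1 base apart, so strands appear combined.

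A CpG was usable with 5 or more reads in each animal. A level is methylated over covering reads, summed per animal and chromosome, then averaged with equal weight over chromosomes 4 to 26; steps of distance, CpG bins and the 2 ends of the 2 Mb pool reads. The middle is the central 10 Mb up to the last CpG. Animals are the replicates; counting precision covers counting error only. Tests were the exact sign-flip test over 6 animals, the exact permutation test of 3 against 3, and, for windows, the quasi-binomial model with dispersion moderated as in limma's squeezeVar and not below 1, adjusted over all autosomal windows. It was tested on simulated data. Named were the 4 chromosomes with the highest and the 4 with the lowest difference, the 4 lowest and 2 highest windows, and the 4 windows per direction with the smallest p without overlap. The members and lists were chosen with earlier results of these data known. Sequences and genes of Oar_v3.1 were not used here. Same-numbered animals are separate animals and are not paired. Alternatives cover coverage, window, band and middle sizes, weighting, CpG number, single animals and limma. Analyses used Python 3.11.15, numpy 2.4.6, scipy 1.17.1, pandas 2.3.3, R 4.3.3 and limma 3.58.1.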

Additional observations from a re-analysis of the deposited data

How the results depend on the processing

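Leaving out an animal left 5, which cannot pass 0.05 in the sign-flip test (smallest p 0.0625); distal minus middle then ran from 3.56 to 3.67 points, distal minus proximal from 7.70 to 8.01 and the outermost minus the inner 500 kb from 0.217 to 0.286. Distal minus middle was -0.0837 points within bins of CpG number and 0.105 within each single number, the latter over 20203 of 23765 distal windows. It was 2.80 to 4.70 points under the other settings with more than 1 chromosome, listed regions kept aside. A coverage minimum of 10 reads left 186 distal windows and 1 chromosome with enough windows, whose distal level was higher, and gave -6.73 points for the outermost minus the inner 500 kb over 32 and 18 windows. That difference was 0.170 without chromosome 11, 0.0110 within CpG bins, -0.986 with the listed regions kept, and with the last 100 kb in its place -1.33, or -1.26 within CpG bins. With the listed regions kept, distal minus middle was 6.35 points, and the distal level was the higher on 21 of 23 chromosomes, with 20 called. With ends of 1 Mb and with ends of 5 Mb it was the higher on 22 of 23. With a middle of 2 Mb it was the higher on all 23, with 20 called. The stage difference of distal minus middle, -0.0152 points, was 0.0172 with a minimum of 3 reads, 0.0101 with ends of 5 Mb, 0.0244 with pooled reads and -0.155 to 0.107 without an animal; its largest values were -2.54 with a minimum of 10 reads (1 chromosome), -0.268 with a middle of 2 Mb and -0.181 within CpG bins. Called distal windows numbered 1 of 142 calls in all with a minimum of 3 reads and 1 of 25 in windows of 2 kb, both starting at 99942001 on chromosome 7, and 2 of 13 with the fit limited to windows outside the lists, that one and the one at 93420001 on chromosome 9. Windows with an unadjusted p under 0.05 numbered 2130 of 30315 or 7.03%, beside 6.31% of all windows (3 reads), 850 of 12874 or 6.60%, beside 6.32% (2 kb), 9 of 186 or 4.84%, beside 6.88% (10 reads), 650 of 11522 or 5.64% (ends of 1 Mb) and 3403 of 57920 or 5.88% (ends of 5 Mb), both beside 6.11%; the distal share was above that of all windows in the first 2. With the replicate number as a block, the stage difference at the distal ends was 0.383 points (exact sign-flip permutation p = 0.5 over 3 pairs), and 0 distal windows were called; over distal windows the correlation of deviations between animals with the same number was 0.00339 to 0.0192, which does not pair them. The listed regions kept, single CpG numbers, CpG bins for the last 500 kb, the last 100 kb and the fit outside the lists were chosen after seeing the data. Causes of these changes were not tested.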
